A study of Homo sapiens with 6 samples.

Results

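The miRNAs described here are those of the imprinted 14q32 cluster and of the chromosome 19 microRNA cluster (C19MC), which were taken by miRNA number from the probe names of a microRNA array. The rule gave 132 probes of the 2555 human miRNA probes on the array, 80 for 14q32 and 52 for C19MC, and it used no measured value. The array was hybridised with total RNA of HuccT1, an established cholangiocarcinoma cell line. Control cells received 0 ng/ml of TGF-β and treated cells received 10 ng/ml of TGF-β, and all cells were collected at 72 h, with 3 arrays in each group. The labels give no other factor that differs between the groups, the line carries no labelled transgene or deletion, and nothing in the labels says whether the 3 arrays of a group came from separate cultures, so p-values measure only the spread between these arrays. By a code in the names of the scanner files, which the labels do not explain, the 3 control arrays and TGF-β array 1 share 1 chip and TGF-β arrays 2 and 3 share another, here called chip 1 and chip 2, so that no control array is on chip 2. The question put to these miRNAs was which of them were detected in this line and whether their signal differed between control and TGF-β.

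The 14q32 cluster lies in the DLK1-DIO3 imprinted domain and is transcribed from the maternal chromosome together with the noncoding RNA MEG3 and the antisense transcript of RTL1. C19MC is a primate-specific cluster that is expressed from the paternal chromosome, and it is known above all for its activity in placental trophoblast and in undifferentiated stem cells. A miRNA is cut from a hairpin, either arm of which (5p or 3p) can become the mature strand, and the mature strand pairs with its targets mainly through its seed, bases 2 to 8. TGF-β is a cytokine that drives epithelial cells towards a mesenchymal state and that also changes the transcription and the maturation of many miRNAs.

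The members that the results turn on are 5 miRNAs of 14q32 and, in C19MC, those that share a seed with miRNAs detected elsewhere. Mature sequences were matched by name in RefSeq (GRCh38.p14) for 126 of the 132 members, and miR-668-3p, miR-498, miR-518f-3p, miR-520b, miR-520e and miR-522-3p were not matched. The sequences are written 5′ to 3′ with the seed in capitals, and all 5 of the first set lie on the plus strand of chromosome 14, miR-665 at chr14:100875075-100875094, miR-431-3p at chr14:100881069-100881090, miR-370-3p at chr14:100911186-100911207, miR-494-3p at chr14:101029681-101029702 and miR-487b-3p at chr14:101046505-101046526. The first set holds the 14q32 miRNAs detected on at least 1 array, followed by the undetected other arms of miR-494 and miR-431 and by the undetected miR-487a-3p, the near copy of miR-487b-3p.
miR-494-3p: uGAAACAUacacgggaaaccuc
miR-431-3p: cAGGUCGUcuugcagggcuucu
miR-665: aCCAGGAGgcugaggccccu
miR-487b-3p: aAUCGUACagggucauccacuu
miR-370-3p: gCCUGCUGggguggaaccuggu
miR-494-5p: aGGUUGUCcguguugucuucucu
miR-431-5p: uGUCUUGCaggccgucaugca
miR-487a-3p: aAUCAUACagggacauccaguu
The second set shows C19MC members beside 2 miRNAs of other chromosomes. miR-519d-3p and miR-526b-3p have the same seed as miR-17-5p and miR-106b-5p, and miR-520c-3p and miR-519c-3p carry its core 1 base closer to the 5′ end.
miR-519d-3p: cAAAGUGCcucccuuuagagug
miR-526b-3p: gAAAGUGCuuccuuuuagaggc
miR-520c-3p: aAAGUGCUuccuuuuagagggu
miR-519c-3p: aAAGUGCAucuuuuuagaggau
miR-17-5p: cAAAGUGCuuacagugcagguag
miR-106b-5p: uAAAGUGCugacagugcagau

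Few of the 132 miRNAs were detected, and none of those detected came from C19MC. A probe was called detected on an array when its brightness was more than 2 SD above the mean of that array's 229 BLANK spots. On at least 1 array, 5 of the 132 members (3.79%) were detected, where 19.9% of all human probes were. On all 6 arrays, 3 members (2.27%) were detected, where 11.4% of all human probes were. The 3 are miR-494-3p, miR-431-3p and miR-665, all of 14q32, and they are also the only members detected on every array of at least 1 group, a condition met by 12.6% of all human probes and called expressed below. Of the 80 probes of 14q32, 6.25% were detected on at least 1 array, and of the 52 probes of C19MC, 0. Control arrays 1, 2 and 3 detected 5, 3 and 4 members, beside 18.2%, 12.9% and 15.0% of all human probes. Each TGF-β array detected 3 members, beside 12.8%, 17.0% and 12.9% of all human probes on arrays 1, 2 and 3. Where a miRNA was not detected, its level lay below what the array could tell from BLANK spots, and in RNA of a whole culture fewer cells with a miRNA cannot be told apart from less of it per cell.

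Nearly all signals of the undetected members lay below the BLANK mean. Among the 75 undetected miRNAs of 14q32, 4 of 450 signals were above the BLANK mean, the highest by 0.263 SD, and the highest-reaching probes were miR-432-3p, miR-154-3p and miR-136-3p. Among the 52 miRNAs of C19MC, 3 of 312 signals were above the BLANK mean, the highest by 0.199 SD, and these belonged to miR-520e, miR-519c-3p and miR-498. No undetected member of either cluster had a mean over the 6 arrays above the BLANK mean. The median member lay at -3.32 to -1.54 SD in 14q32 and at -3.12 to -1.48 SD in C19MC, depending on the array, and the median of all human probes lay at -2.96 to -1.30 SD. Signals below the BLANK mean were thus common on these arrays, in 74.5% to 82.6% of all human probes and in 94.7% to 96.2% of the members. Both shares include detected probes, which are rarer among the members, so the gap between them also holds the difference in detection.

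**Figure D1:**
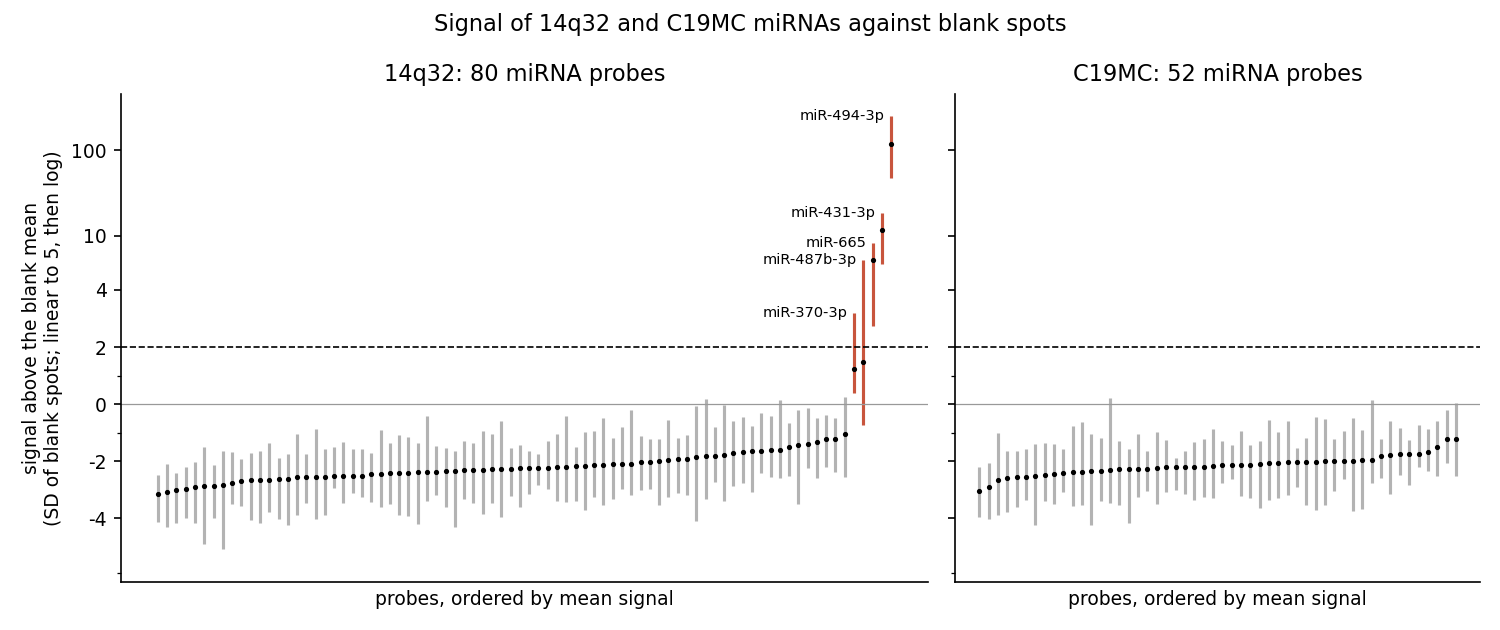
Each vertical line spans the lowest to the highest of the 6 arrays for 1 probe and each dot is its mean, as a distance from the BLANK mean in BLANK SD (linear to 5, then log), with the detection limit of 2 SD dashed. The 5 labelled probes of 14q32 cross the limit on at least 1 array, and the 52 probes of C19MC stay below 0.199 SD.

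In 14q32 the signal was confined, on these arrays, to single arms of single hairpins. The 79 members with a RefSeq position lie on chromosome 14 within 198 kb, in a proximal stretch from miR-493-5p to miR-370-3p and a distal stretch from miR-379-5p to miR-656-3p, with 111 kb between them. In the proximal stretch 3 of 17 miRNAs were detected on at least 1 array (miR-665, miR-431-3p and miR-370-3p), and in the distal stretch 2 of 62 were (miR-494-3p and miR-487b-3p). These shares are 17.6% and 3.23%, beside 19.9% of all human probes, and the difference between the stretches was not tested. Of 37 hairpins with both arms on the array, 4 had 1 arm detected and 0 had both. The same counts were not made over all human hairpins, so they cannot be read as a trait of this cluster. The 5p arm of miR-494, cut from the same hairpin as the detected 3p arm, lay between -3.45 and -1.36 SD, and miR-431-5p lay between -3.17 and -1.09 SD.

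The members next to miR-494-3p were not detected. Within 10 kb on either side of mature miR-494-3p the array measured 16 other members, among them miR-543, miR-329-3p, miR-758-3p, miR-323a-3p and miR-495-3p. On at least 1 array 0 of the 16 were detected, beside 2 of 62 in the distal stretch and 19.9% of all human probes. Signals of the 16 ran from -4.18 to -0.04 SD. The best-known members of the cluster were at the same level. miR-127-3p, from the RTL1 antisense transcript that also holds miR-431, lay between -2.76 and -0.443 SD. miR-134-5p, known for its control of dendritic spine size in neurons, lay between -2.60 and -0.498 SD, and miR-379-5p and miR-410-3p, near the start and the end of the distal stretch, reached -0.416 and -1.52 SD at most. miR-409-3p, miR-376c-3p and miR-381-3p reached -0.480, -0.219 and -1.19 SD. Of 13 such well-known miRNAs of 14q32, 11 were undetected on all arrays, and the others were miR-494-3p and miR-370-3p. Over all human probes 80.1% were undetected on all arrays, so 11 of 13 is near the share of the whole array.

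**Figure D2:**
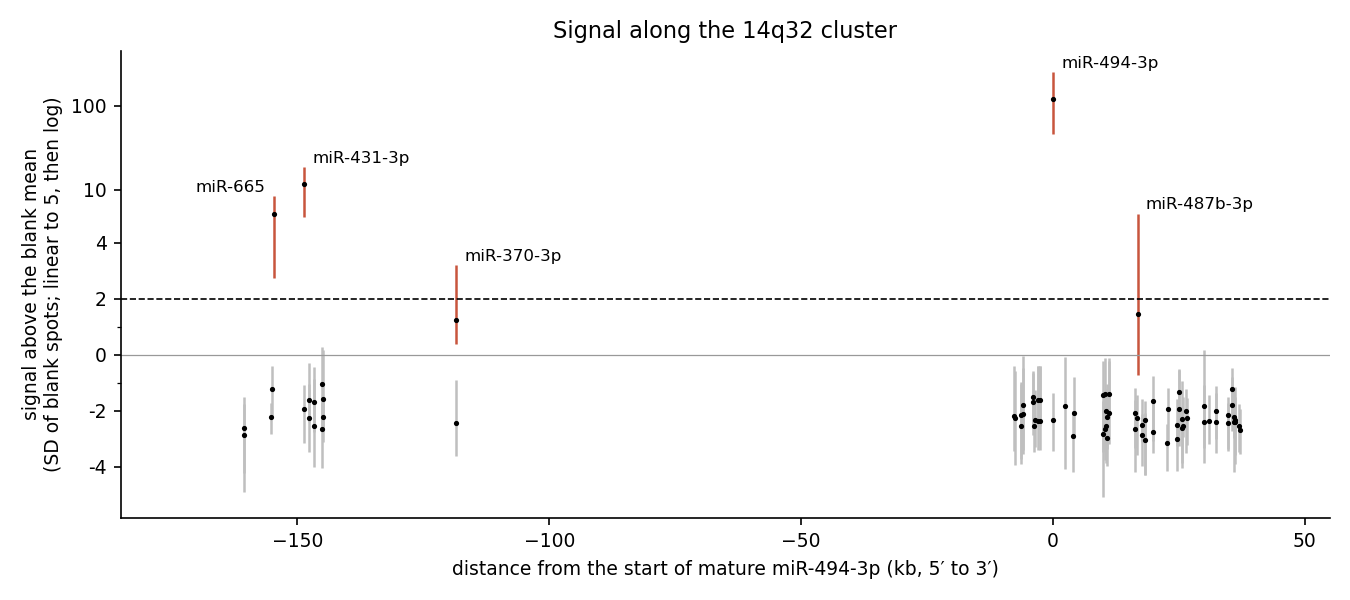
The horizontal axis is the distance in kb from the start of mature miR-494-3p along the 14q32 cluster, and the vertical axis is the signal in SD of the BLANK spots (line from the lowest to the highest of the 6 arrays, dot at the mean, detection limit of 2 SD dashed). Detected miRNAs stand alone among undetected ones in both stretches. Within 10 kb of miR-494-3p 0 of 16 members pass the limit on any array, beside 19.9% of all human probes on at least 1 array.

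C19MC gave no detected miRNA on any of the 6 arrays. The 47 members with a RefSeq position lie on the plus strand of chromosome 19 within 95.7 kb. All 13 of the best-known members were undetected, where 80.1% of all human probes were. Among them was miR-517a-3p, measured by 1 probe with miR-517b-3p and used as a placental marker in blood, at -4.24 to -1.40 SD. miR-512-3p, at the start of the cluster, lay between -3.49 and -1.38 SD, and miR-1323 lay between -2.85 and -1.25 SD. In units of the normalized signal, which sets the median probe seen on every array to 25, the detection limit was 1.83 on the most sensitive array and 4.30 on the least sensitive, so a C19MC signal below these values was not detectable.

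A run of letters at or next to the seed gives a contrast between miRNAs. The letters AAGUGC within bases 1 to 8 of the mature strand, searched on that strand alone, occur in 11 of the 47 C19MC members with a sequence (23.4%), in 0 of 79 of 14q32 and in 26 of 2246 human miRNAs on the array with a sequence (1.16%). Where the letters start at base 1, as in miR-512-3p, miR-519e-3p and miR-520f-3p, the seed does not hold all of them. The 11 C19MC miRNAs with these letters lay between -3.95 and 0.138 SD. Of the 15 miRNAs with them outside the clusters, 9 were also undetected, and these belong to miR-302, miR-371, miR-372 and miR-373, miRNAs known from stem cells, at -4.29 to 0.0891 SD. The other 6, miR-17-5p, miR-20a-5p, miR-20b-5p, miR-93-5p, miR-106a-5p and miR-106b-5p, of the miR-17-92 cluster and its copies, passed the limit on all 6 arrays, at 8.27 to 129 SD. They have exactly the seed of miR-519d-3p and miR-526b-3p, both undetected, and beyond the seed the sequences part. miR-519d-3p differs from these 6 by 8 to 10 edits over 22 bases, and miR-526b-3p differs from each of them by 10.

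**Figure D3:**
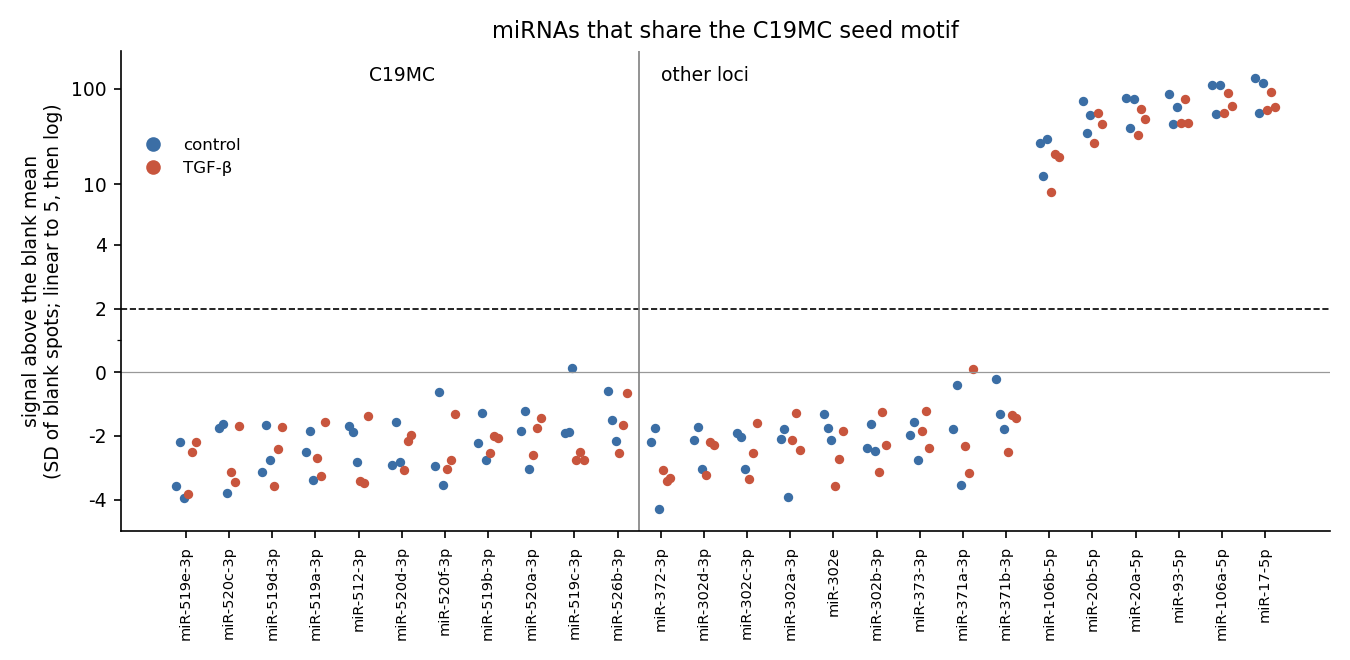
Each point is 1 array (blue control, red TGF-β) and the vertical axis is the distance from the BLANK mean in BLANK SD (linear to 5, then log), with the detection limit of 2 SD dashed. Shown are the 11 C19MC miRNAs with the letters AAGUGC in bases 1 to 8 and the 15 miRNAs with them from other loci. The 6 miRNAs at the right lie between 8.27 and 129 SD on all 6 arrays, and the other 20 lie below the limit.

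miR-494-3p lay 46.5 to 252 SD above the BLANK mean over the 6 arrays. Control arrays 1, 2 and 3 gave normalized signals of 92.4, 114 and 262, and TGF-β arrays 1, 2 and 3 gave 85.6, 96.5 and 322. Array 3 was the highest in each group, by more than the groups differed, and the groups overlapped. The means were 156 ± 92.3 (SD, n = 3) in control cells and 168 ± 133 (SD, n = 3) with TGF-β, a ratio of 1.07, while the log2 change was -0.02 (SE 0.56, 95% interval -1.30 to 1.26, adjusted p = 0.99 in limma). TGF-β over control gave, between arrays of the same number, ratios of 0.926, 0.845 and 1.23, and with the replicate number as a block the SE of the log2 change was 0.21 and the adjusted p in limma 0.98. On chip 1 alone, where TGF-β array 1 was below each control array, and with the chip as a block, the log2 change was -0.71. Leaving out each array in turn moved the log2 change between -0.63 (without TGF-β array 3) and 0.43 (without control array 3). The exact permutation test (2-sided) gave p = 1.0, where 3 arrays against 3 cannot give a p below 0.10.

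miR-431-3p, from the hairpin next to miR-433 and miR-127 in the RTL1 antisense transcript, gave a normalized signal of 10.3, 24.2 and 19.1 on the control arrays 1, 2 and 3. With TGF-β it gave 23.8, 12.1 and 9.48. The highest and the lowest values came from different array numbers in the 2 groups, and the groups overlapped over most of their range. The means were 17.9 ± 7.01 and 15.1 ± 7.60 (SD, n = 3 each) and the ratio was 0.846. The log2 change was -0.27 (SE 0.41, 95% interval -1.21 to 0.68, adjusted p = 0.99 in limma), and the exact permutation p (2-sided) was 0.7. Its direction turned where TGF-β array 1 alone stood for the treated cells. Within chip 1 the log2 change was 0.50.

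miR-665 lay close to the limit. Its normalized signal was 7.56, 7.67 and 2.84 in control cells and 9.50, 8.58 and 5.92 with TGF-β, on arrays 1, 2 and 3 in that order. Array 3 was the lowest in each group, control array 3 was the lowest of all, and the groups overlapped through TGF-β array 3. The means were 6.03 ± 2.76 and 8.0 ± 1.86 (SD, n = 3 each), a ratio of 1.33, and the TGF-β array was the higher one at each of the 3 numbers. The log2 change was 0.52 (SE 0.40, 95% interval -0.39 to 1.43, adjusted p = 0.99 in limma), and the exact permutation p (2-sided) was 0.5. Without control array 3 the log2 change was 0.04, and that fit keeps TGF-β array 3, the lowest of its group. Without TGF-β array 3 it was 0.72, and on chip 1 alone, with 1 treated array, it was 0.79. Both of these fits keep control array 3, the lowest of all. TGF-β over control gave, between arrays of the same number, ratios of 1.26, 1.12 and 2.08. With the replicate number as a block the 95% interval was -0.004 to 1.03 and the adjusted p in limma 0.49. The probe was below a stricter limit of 3 SD on 1 array, and with local background subtracted from every spot it was detected on no array.

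**Figure D4:**
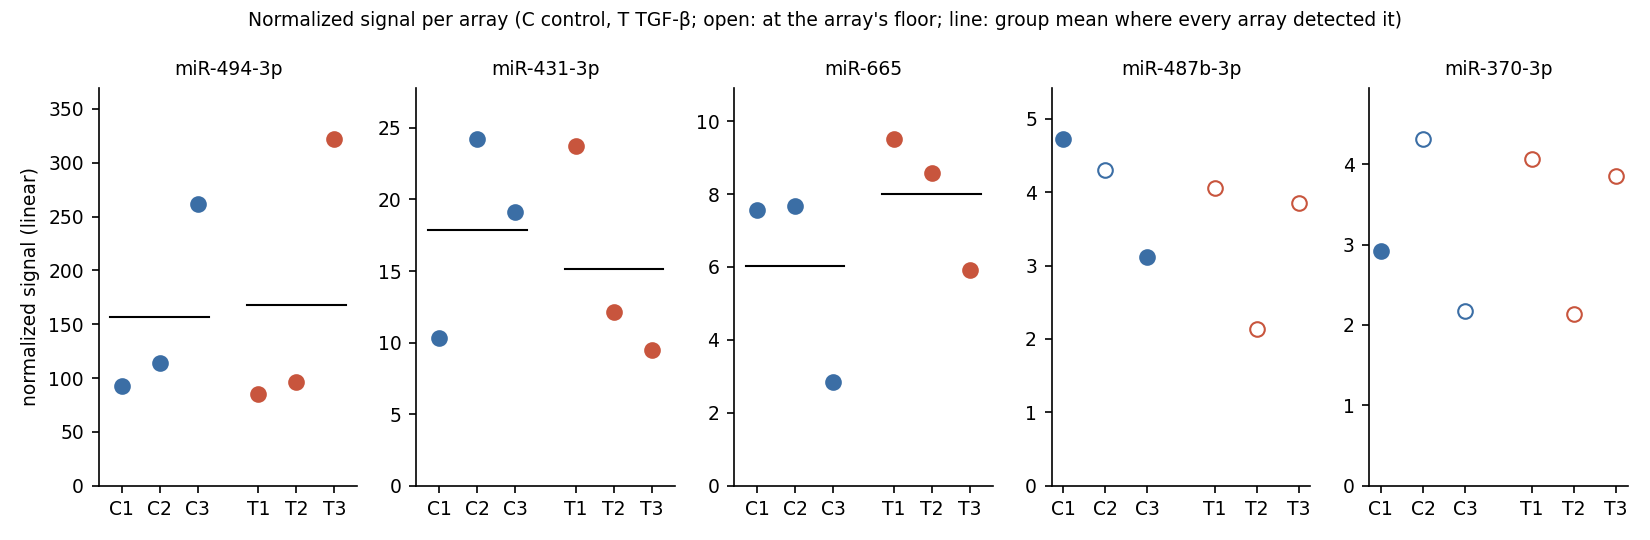
Normalized signal (linear axis from 0, a scale of its own for each miRNA) of the 5 detected 14q32 miRNAs on the control arrays C1 to C3 and the TGF-β arrays T1 to T3; open points stand at the lowest detected signal of their array because the probe was not detected there, and lines are group means where all 6 arrays detected the miRNA. For miR-494-3p array 3 is the highest in each group, at 262 and 322, and for miR-431-3p and miR-665 the groups overlap as well.

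The other two detected members stood near the limit and passed it on control arrays only. miR-487b-3p was above the BLANK mean by 5.17 and 2.99 SD on control arrays 1 and 3, where it was detected, and lay at -0.417 SD on control array 2. With TGF-β it lay at -0.725, -0.105 and 1.88 SD, below the limit on each array. The authors' table lists it on 3 arrays, control arrays 1 and 3 and TGF-β array 3, so under that listing it was not confined to control cells. The 2 detections fell on the arrays with the smallest BLANK SD, a brightness of 1.79 and 1.78 against 3.98 to 7.63 on the other 4, and the part of that in the detections was not tested. The spot of miR-487b-3p also lies next to that of miR-431-3p, which averaged 11.7 SD, and the part of this was not tested either. The probe of miR-487a-3p, which differs from miR-487b-3p by 3 edits, lay between -3.12 and -1.19 SD.

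miR-370-3p, at the end of the proximal stretch, was detected on control array 1 alone, at 3.20 SD. On the other control arrays it lay at 0.525 and 1.48 SD and on the TGF-β arrays at 0.552, 1.35 and 0.391 SD. All 6 values were above the BLANK mean, and its other arm was not detected.

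Between control and TGF-β no member passed the test. Of the 323 human miRNAs that were expressed, 3 were members, and at an adjusted p of 0.05 in limma 0 of the 3 and 0 of the 323 (0%) were called. At an unadjusted p under 0.05, 21 of the 323 and 0 of the 3 passed, and the test that the study's methods name called 1 of the 323 after adjustment and 0 of the 3. A ratio of means above 1.5 was found for 4.64% of the 323 and a ratio below 0.67 for 2.79%, and no member was past either value. This balance depends on the scaling, with 15 miRNAs above 1.5 and 9 below 0.67 here, 5 and 42 of 349 in the authors' normalized values, 6 and 27 with the median of the detected probes of each array, and 221 and 0 with no scaling. In 9.91% of the 323 the 3 arrays of one group lay all above those of the other, and in 0 of the 3 members. The intervals are wide. For miR-494-3p the 95% interval runs from -1.30 to 1.26 on the log2 scale. With the replicate number as a block it runs from -0.49 to 0.45. That block takes the same-numbered arrays as pairs, which the labels do not state.

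**Figure D5:**
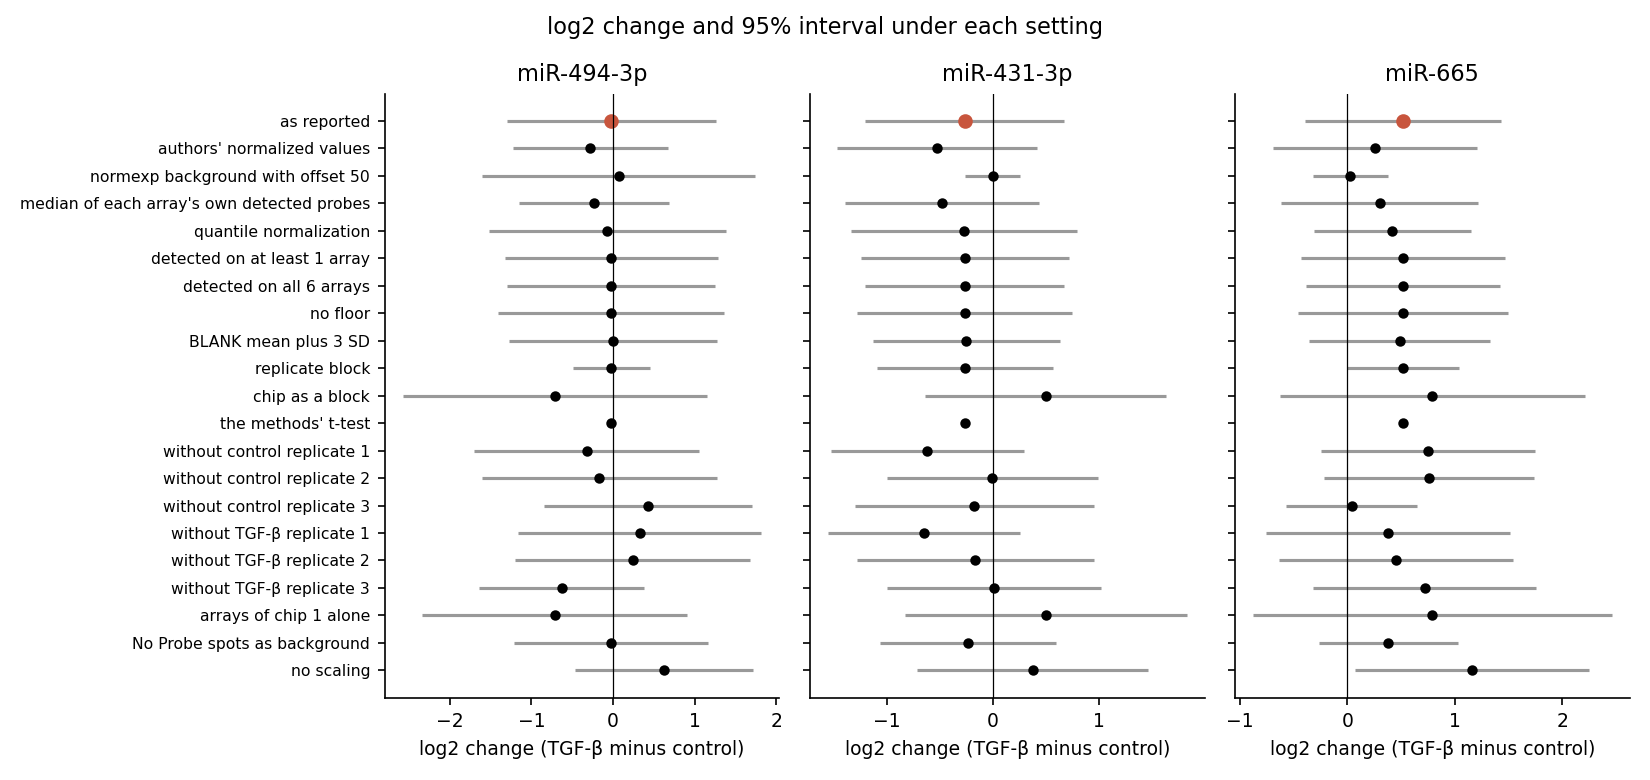
Log2 change (TGF-β minus control) of the 3 expressed members with its 95% interval where one was computed, as reported (red) and under 20 other settings (black). miR-665 is above 0 in each setting, from 0.03 to 1.16, and miR-494-3p and miR-431-3p lie on both sides of 0. Some settings cannot change the estimate, and the chip as a block and chip 1 alone give the same value, so the settings are not separate checks.

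Some miRNAs near the clusters that the numbers do not cover were detected. Of 16 further miRNAs of 14q32, which include miR-300, miR-380, miR-412 and miR-1197 from inside the distal stretch and miR-770-5p from MEG3, 14 were undetected and 2 (12.5%) were detected on at least 1 array, beside 19.9% of all human probes. miR-2392, 54.5 kb before the cluster, was detected on 5 arrays at 7.98 to 55.5 SD and was missing through a spot flag on control array 1. miR-1247-3p, 494 kb after the cluster at the DIO3 end of the domain and on the opposite strand, passed the limit on all 6 arrays, at 15.1 to 37.0 SD. Its normalized signal was 32.8, 33.1 and 38.6 in control cells and 42.5, 31.7 and 29.1 with TGF-β. These values overlapped between the groups. Beside C19MC, 25.3 kb after its end, lies the miR-371 to miR-373 cluster, with 6 of 8 miRNAs undetected and 2 (25%) detected on at least 1 array. There miR-371a-5p passed the limit on all 6 arrays, at 4.79 to 15.0 SD, and miR-371b-5p was detected on control array 1 at 2.42 SD.

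The detected members share little in sequence. Their 5 seeds are all different. The share of G and C is 45.5% in miR-494-3p and miR-487b-3p, 59.1% in miR-431-3p, 68.2% in miR-370-3p and 70% in miR-665. The median over the members with a sequence is 45.5% in 14q32 and 47.6% in C19MC, and it is 52.2% over all human miRNAs on the array and 60.9% over those detected on all 6 arrays. The part of base composition in the detection was not tested. The miRNAs closest in sequence to miR-494-3p are miR-382-3p and miR-496, at 8 edits, and both were undetected. The closest to miR-665 include miR-4484, at 7 edits, which averaged 130 SD above the BLANK mean. No spot next to those of miR-494-3p, miR-431-3p, miR-665 or miR-370-3p was detected on all 6 arrays.

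Over the whole array, 327 to 464 human probes (12.8% to 18.2%) were detected per array. Control array 1 had the most, and all 5 detected members were detected there. The label of an epithelial cancer line was checked on the miR-200 family, markers of epithelial cells. Of these, 5 of 5 were detected, 4 of them on all 6 arrays, beside 19.9% and 11.4% of all human probes. Of 14 markers of other cell types (blood, liver, muscle, nerve and stroma), 12 were undetected, near the 80.1% of all human probes that were undetected on every array. miR-223-3p was detected on TGF-β array 3 at 6.44 SD and miR-9-5p on control array 1 at 3.03 SD. The muscle marker miR-1-3p was not matched by name on the array and is not among the 14.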

How the data were processed

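Total RNA of HuccT1 cells, labelled with Cy5, was hybridised to a 3D-Gene Human miRNA Oligo chip, with 3 control and 3 TGF-β arrays grouped by the labels. For each array the authors deposited the scanner output, a linear intensity for each spot that is not normalized, beside its local background, and a table of normalized intensity values scaled per array to a median of 25. The authors processed the scans with 3D-Gene Extraction software; its version is not given in the sources used here. The scanner output was the main source.

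Members were the probes whose miRNA number belongs to 14q32 or C19MC, with names joined in 1 probe split at the commas. The members and the lists of neighbours, seed relatives, best-known miRNAs and markers were chosen with earlier results of these data known. The members given in full are those expressed, then those detected on at least 1 array, then the best-known ones. Detection was a brightness above the mean plus 2 SD of the 229 BLANK spots. Flagged spots (0 to 2 human probes per array) were missing. The BLANK mean was subtracted, each array was scaled to a median of 25 over the 292 probes detected on all 6 arrays, undetected signals took the array's lowest detected value (1.83 to 4.31), and log2 was taken. limma 3.58.1 (R 4.3.3) compared the groups over the 323 expressed miRNAs without a block, with Benjamini-Hochberg adjustment. The limma step was run on simulated data with independent noise and no chip or replicate structure. That run checked only that planted changes were returned on average, so it does not bear on the spread between these arrays. The exact permutation test was run on log2 signals.

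Same-numbered arrays deviated together from their group means (r = 0.12, 0.24 and 0.33 over 322 miRNAs, which are not independent). No such values are given for arrays of different numbers, so these correlations do not establish pairs. The numbers were taken as pairs in an alternative fit only, with the replicate number as a block. The main fit and the permutation test took the arrays as unpaired, so their intervals and p-values leave any pairing out. The labels do not say what a number marks. No column of another series was used. Sequences and positions are from RefSeq (GRCh38.p14). Edit distances were computed with edlib 1.3.9. The number of arrays limits the precision.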

Additional observations from a re-analysis of the deposited data

How the results depend on the processing

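Across 20 other settings, 0 of the expressed members passed an adjusted p of 0.05, and of all 323 miRNAs the methods' t-test called 1, as did limma without TGF-β array 3 (1 of 339). With the replicate block, the log2 changes of miR-494-3p, miR-431-3p and miR-665 were -0.02, -0.27 and 0.52, with adjusted p-values in limma of 0.98, 0.98 and 0.49, and no call changed. miR-665 kept its sign in all 20, but these are not 20 separate checks. Detection on at least 1 or on all 6 arrays, no floor, the replicate block and the t-test cannot change its estimate, which stayed at 0.52. The chip as a block and chip 1 alone gave the same value, 0.79. miR-494-3p turned to 0.069 with normexp background and to 0.62 with no scaling, was -0.71 with the chip as a block and on chip 1 alone, and ran from -0.63 to 0.43 when each array was left out in turn. miR-431-3p turned to 0.50 with the chip as a block and on chip 1 alone and to 0.37 with no scaling, and it ran from -0.65 to 0.012 when each array was left out. The causes were not tested. No scaling moved the median of all miRNAs by 0.66 on the log2 scale, so none of these 3 values can be read apart from that shift; the authors' normalized values moved it by -0.27 and the median of the detected probes of each array by -0.20.

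Detection counts held under trimmed BLANK spots, their 99th percentile and the authors' listing. Trimmed BLANK spots and the authors' listing passed the same numbers of human probes, 555 on at least 1 array and 303 on all 6, so they are not separate checks. The authors' listing places miR-487b-3p on TGF-β array 3 as well. A limit of 3 SD left 2 members on all 6 arrays, without miR-665, beside 261 of the 2555 human probes. With local background subtracted, an alternative chosen after seeing the data, 1 member was detected on all 6 arrays (miR-494-3p), which was also the 1 expressed, and 2 were detected on at least 1 array (with miR-431-3p). Of the 2555 human probes, 25 were then detected on all 6 arrays and 11.7% on at least 1 array. Under that limit 1 of 132 members on all 6 arrays is near the share of the whole array, so the lower share of members was not kept there. With No Probe spots in place of BLANK spots, also chosen after seeing the data, 7 members were detected on at least 1 array, 1 of them from C19MC (miR-519c-3p). Of all human probes 26.0% were detected on at least 1 array under that limit. Without control array 1 the count on at least 1 array was 4, and leaving out any other array kept it at 5. Without control array 2, miR-487b-3p joined the expressed members, 4 in all. Detection and change near the limit, as for miR-665, rest on signals within a few SD of BLANK spots.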
